A study of Homo sapiens with 15 samples.

Results

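The 14-3-3 proteins are a family of small dimeric adaptors, and all 7 human genes that encode them were followed in irradiated U251 glioblastoma cells: SFN, YWHAB, YWHAE, YWHAG, YWHAH, YWHAQ and YWHAZ. They were taken by gene symbol from a table of RNA-seq read counts of 22447 genes, and all 7 were among the 12719 genes with enough reads to be tested. U251 is an established human glioblastoma line, labelled WT, grown on plates and exposed once to X-rays at 1 Gy or 6 Gy. Irradiated cells were collected 6 h or 24 h later, which gave the groups 1 Gy at 6 h, 1 Gy at 24 h, 6 Gy at 6 h, 6 Gy at 24 h and an unirradiated control, with 3 libraries each. The control is labelled 0 h, but its cells were collected 24 h after the other plates were irradiated, 18 h later than the 6 h groups. In both comparisons of a 6 h group with the control, irradiation and collection time therefore cannot be told apart. No unirradiated cells were collected at 6 h. Between 24 h and 6 h after a dose, the course after irradiation and time in culture therefore also cannot be told apart. As a model, the study is limited to 1 cell line in culture, and the labels do not say that replicates came from separate cultures. The methods of the study call them biological replicates. If they were not separate cultures, p-values measure only the spread between these libraries, which may be technical.

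A 14-3-3 dimer grips short phosphorylated serine or threonine motifs on client proteins, and in doing so hides a localisation signal, blocks an active site or keeps 2 partners together. Through clients such as the CDC25 phosphatases, WEE1, BAD and the FOXO factors, the family connects DNA damage and growth factor kinases with the cell cycle and with survival. SFN encodes stratifin (14-3-3 sigma), which is known from epithelial cells as a gene switched on after DNA damage and which holds cyclin B1 and CDK1 in the cytoplasm. The other 6 genes encode the beta (YWHAB), epsilon (YWHAE), gamma (YWHAG), eta (YWHAH), theta (YWHAQ) and zeta (YWHAZ) isoforms, which are abundant in brain and in most other tissues.

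SFN and YWHAH were picked for display because their RNA moved most, and the DNA before their start sites differs. SFN is a single-exon gene at chr1:27189633-27190947 (hg19, plus strand), and YWHAH has 2 exons at chr22:32340479-32353590 (plus strand). Shown are the 250 bases before the start of each gene, 5′ to 3′ (RefSeq, GRCh38.p14, plus strand), at chr1:26862899-26863148 for SFN and chr22:31944285-31944534 for YWHAH, with every CG dinucleotide in capitals.
SFN: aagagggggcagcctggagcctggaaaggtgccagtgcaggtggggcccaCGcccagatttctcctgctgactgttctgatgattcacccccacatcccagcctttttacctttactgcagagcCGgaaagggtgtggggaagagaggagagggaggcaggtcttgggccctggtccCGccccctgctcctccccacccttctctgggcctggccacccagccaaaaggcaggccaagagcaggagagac
YWHAH: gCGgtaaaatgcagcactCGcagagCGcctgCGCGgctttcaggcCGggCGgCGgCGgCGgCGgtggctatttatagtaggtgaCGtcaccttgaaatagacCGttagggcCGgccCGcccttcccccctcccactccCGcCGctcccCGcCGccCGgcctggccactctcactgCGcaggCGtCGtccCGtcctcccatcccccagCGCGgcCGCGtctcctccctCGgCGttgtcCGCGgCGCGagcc
SFN has 3 CG dinucleotides in this window and YWHAH has 34, while the median over 35114 promoters of the same length was 11. YWHAB, YWHAE, YWHAG and YWHAQ have 21, 29, 23 and 28, so SFN was the only CG-poor one of the 6 members matched by symbol. The letters GGGCGG, or their complement, stood in all 6 of these promoters (1 copy in SFN, 3 in YWHAH) and in 42.6% of all promoters. The palindrome TGACGTCA, the cyclic AMP response element, stood in YWHAH alone of the 6, starting 169 bases before the start site, and in 1.65% of all promoters. YWHAH also held TATAAA or its complement, as 10.7% of all promoters did, and CCAAT on either strand stood in YWHAB and YWHAQ and in 32% of all. These are matches of letters and not evidence of binding. A link between them, or the number of CG dinucleotides, and the changes in RNA was not tested.

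The 13 libraries entered in the fit held 8691338 to 11719631 counted reads. Control replicate III and 1 Gy at 6 h replicate II were outside the fit. The expression table of the study leaves them out too, with no reason given. They were used in a second fit of all 15 libraries, which is given beside the results of the members and lists where it changes a call or a count of calls. Libraries of 1 group correlated with r between 0.991 and 0.994, except for 0.987 between the left-out 1 Gy library at 6 h and replicate I. The glial and neural stem markers VIM (1369 to 1928 CPM), CD44, NES and SOX2 were high in every library, GFAP was low (2.87 to 4.60 CPM) and OLIG2 had no reads. CPM here are read counts scaled to library size after trimmed-mean (TMM) adjustment. The 9 blood cell markers in the table summed to between 0.664 and 1.83 CPM. Among 25 epithelial markers, EPCAM had no reads in any library and CDH1 had 0 to 2, while KRT8 (52.6 to 85.6 CPM) and KRT18 (74.3 to 92.8 CPM) were well covered, and the list summed to between 849 and 1041 CPM.

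Per length of the MANE Select transcript, YWHAE and YWHAQ were the most abundant members and SFN by far the least. Without scaling by length, YWHAZ had 1128 CPM in the control, against 1150 CPM for YWHAE and 956 CPM for YWHAQ. The place of YWHAZ per length rests on a transcript of 5011 bases, which may differ from those counted. On the scale of CPM per kb of the MANE Select transcript, the order after 6 Gy at 6 h was YWHAE at 540 ± 2.13, YWHAQ at 437 ± 14.7, YWHAB at 215 ± 14.7, YWHAZ at 214 ± 10.6, YWHAG at 146 ± 4.29, YWHAH at 126 ± 3.63 and SFN at 17.6 ± 1.67 (SD, n = 3 libraries). YWHAB (205 to 231) and YWHAZ (206 to 226) overlapped, and no other neighbours did. In the control the order was YWHAE at 560 ± 4.29, YWHAQ at 435 ± 6.15, YWHAZ at 225 ± 2.06, YWHAB at 208 ± 2.22, YWHAG at 157 ± 0.263, YWHAH at 120 ± 2.35 and SFN at 11.5 ± 0.801 CPM per kb (SD, n = 2), with no overlap between neighbours. YWHAE, YWHAQ, YWHAZ and YWHAB have processed pseudogenes in the GENCODE annotation, and reads that fit both a gene and its copy cannot be placed with certainty. Of such copies the count table held YWHAEP1, with 11 reads over all 15 libraries, and YWHAEP7, with 1 read. C22orf24, which overlaps YWHAH, had 20 reads in all.

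**Figure D1:**
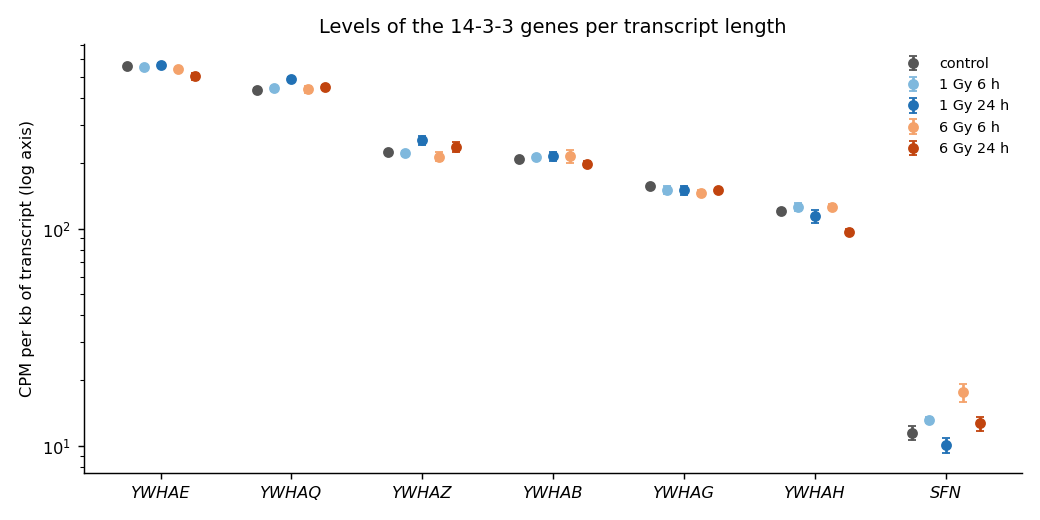
Level of each 14-3-3 gene in CPM per kb of transcript on a log axis, with points for the group mean and bars for the SD of the fitted libraries, by dose and time. SFN lies between 10.1 and 17.6 CPM per kb, below all other members, and YWHAE and YWHAQ lie highest.

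The summed level of the family was highest after 1 Gy at 24 h and lowest after 6 Gy at 24 h, with no test run on the sum. The 7 genes added up to 4937 ± 96.8 CPM after 1 Gy at 24 h, 4545 ± 114 CPM after 6 Gy at 24 h, 4572 ± 121 CPM after 6 Gy at 6 h (SD, n = 3 each) and 4654 ± 50.2 CPM after 1 Gy at 6 h, against 4670 ± 21.9 CPM in the control (SD, n = 2 each). YWHAZ made up 26.2% ± 0.730 of the family's reads after 6 Gy at 24 h, against 24.2% ± 0.107 in the control. The share of YWHAH was 3.72% ± 0.162 after 6 Gy at 24 h, against 4.50% ± 0.109 in the control. SFN contributed 0.504% ± 0.0343 after 6 Gy at 6 h and 0.322% ± 0.0209 in the control. Stratifin RNA remained a small fraction of the family's RNA in every group.

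**Figure D2:**
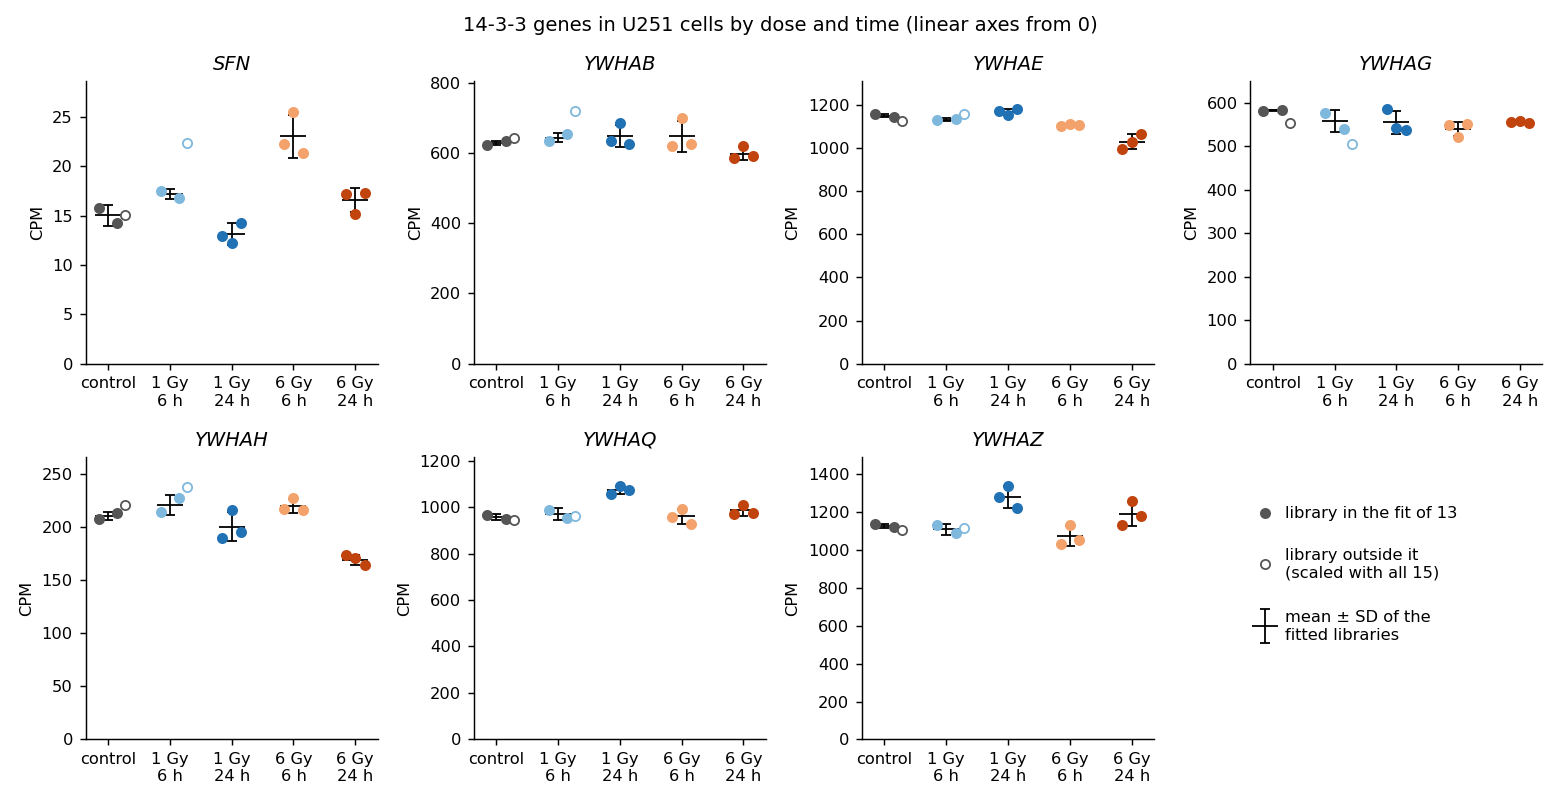
CPM of the 7 genes in each library by dose and time, on linear axes that start at 0, with filled points for libraries in the fit, open points for both libraries outside it and bars for the mean and SD. SFN is highest after 6 Gy at 6 h (21.4 to 25.5 CPM), and YWHAH is lowest after 6 Gy at 24 h (164 to 173 CPM).

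No 14-3-3 gene passed the test 6 h after 1 Gy. Of the 7 members, 0 had an adjusted p under 0.05 by the quasi-likelihood test of edgeR, Benjamini-Hochberg adjusted, as did 0% of all genes, and 0% of genes were called higher and 0% lower, where a call also needs a log2 fold change beyond 0.5. The count stayed at 0 members for an unadjusted p under 0.05 and in DESeq2. The log2 fold changes ran from -0.06 (YWHAG) to 0.20 (SFN). SFN had 17.5 and 16.8 CPM after 1 Gy at 6 h, against 15.8 and 14.3 CPM in the control. The left-out library of 1 Gy at 6 h stood apart for SFN at 22.4 CPM, among the 6 Gy values of the same time, and the left-out control had 15.1 CPM. With all 15 libraries the log2 fold change of SFN was 0.33 ± 0.119 (SE), with an adjusted p of 0.845.

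At 6 h after 6 Gy, SFN rose while the other members stayed near the control. SFN had 22.3, 25.5 and 21.4 CPM after 6 Gy at 6 h, against 15.8 and 14.3 CPM in the control. The groups did not overlap, also when the left-out control is added. In the 13 fitted libraries those of YWHAE, YWHAG and YWHAH did not overlap either. Groups this small often lie apart, and the share of all genes without overlap was not counted in any comparison. A lack of overlap here and below therefore only describes the values. These values rest on 205 to 233 reads per library after 6 Gy at 6 h and 148 reads in each control. The log2 fold change was 0.62 ± 0.118 (SE; 95% interval 0.37 to 0.86), a fold of 1.53, with an adjusted p of 0.00345 in edgeR's quasi-likelihood test, and it was rank 201 from the top among 12719 genes. SFN was the 1 of 7 members with an adjusted p under 0.05, against 2.88% of all genes tested, and the 1 called higher, against 0.252% of all genes called higher and 0.818% called lower. In bulk RNA, more cells with the transcript and more transcript per cell cannot be told apart.

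The call of SFN was the same with all 15 libraries (0.62, adjusted p = 0.00331 in edgeR) and was lost without control replicate II, where the lone control is assumed to vary like the other groups (0.55, adjusted p = 0.109). Epithelial markers did not pass the test beside it: 0 of 14 tested were called by edgeR or by DESeq2, 2 had an unadjusted p under 0.05, and the 25 markers summed to between 938 and 1041 CPM after 6 Gy at 6 h, against 963 to 992 CPM in the control. At 24 h, when SFN did not pass the test against the control, some epithelial markers were called. Of 14 tested, 4 were called higher after 1 Gy (ELF3, ESRP1, EHF and TRIM29), where 3.18% of all genes were. After 6 Gy at 24 h these 4 and KRT8 (0.51) were called higher and KRT81 (-0.54) lower, where 5.58% of all genes were called higher and 2.19% lower, and the fit of 15 libraries called 4 higher and 1 lower. The 25 markers summed to 849 to 924 CPM after 6 Gy at 24 h and 892 to 913 CPM after 1 Gy at 24 h, below the control. ELF3, ESRP1 and TRIM29 were low, with means of 1.77, 2.42 and 3.02 CPM after 1 Gy at 24 h. In the control they had 0.150, 0.624 and 1.17 CPM. After 1 Gy at 24 h EHF had 25.6 CPM, against 14.4 CPM in the control. KRT81, not called there, had 327 CPM, against 417 CPM in the control. The part of these markers in the members' results was not tested.

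The other 6 members had log2 fold changes between -0.11 and 0.06 in this comparison, and none had an unadjusted p under 0.05. YWHAG, which restrains CDC25 phosphatases among other clients, had 523 to 551 CPM after 6 Gy at 6 h, against 582 and 584 CPM in the control (log2 fold change -0.11, 95% interval -0.23 to 0.02). YWHAE, an isoform that binds CDC25 and forms dimers with most other isoforms, had 1103 to 1112 CPM, against 1144 and 1156 CPM in the control (-0.05, interval -0.17 to 0.06). YWHAB (0.04), YWHAH (0.06), YWHAQ (0.01) and YWHAZ (-0.07) had log2 fold changes whose intervals all held 0.

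The comparison of the doses at 6 h, in which collection times match, gave a smaller difference for SFN, which did not pass the test. SFN had 22.3, 25.5 and 21.4 CPM after 6 Gy, against 17.5 and 16.8 CPM after 1 Gy, a log2 difference of 0.42 ± 0.116 (SE; interval 0.18 to 0.66) with an adjusted p of 0.106 in edgeR's quasi-likelihood test. The 13 libraries did not overlap, but the left-out 1 Gy library at 22.4 CPM lies inside the 6 Gy range, and with it the difference was 0.29 with an adjusted p of 0.529. No member passed the test here, where 1.05% of all genes had an adjusted p under 0.05 and 0.582% were called. At an unadjusted p under 0.05 there was 1 member, SFN, and DESeq2 called 0. On the 13 libraries SFN had an adjusted p of 0.0382 in edgeR's likelihood ratio test and 0.0422 in its exact test. The other 6 members differed by -0.05 to 0.01 on the log2 scale.

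**Figure D3:**
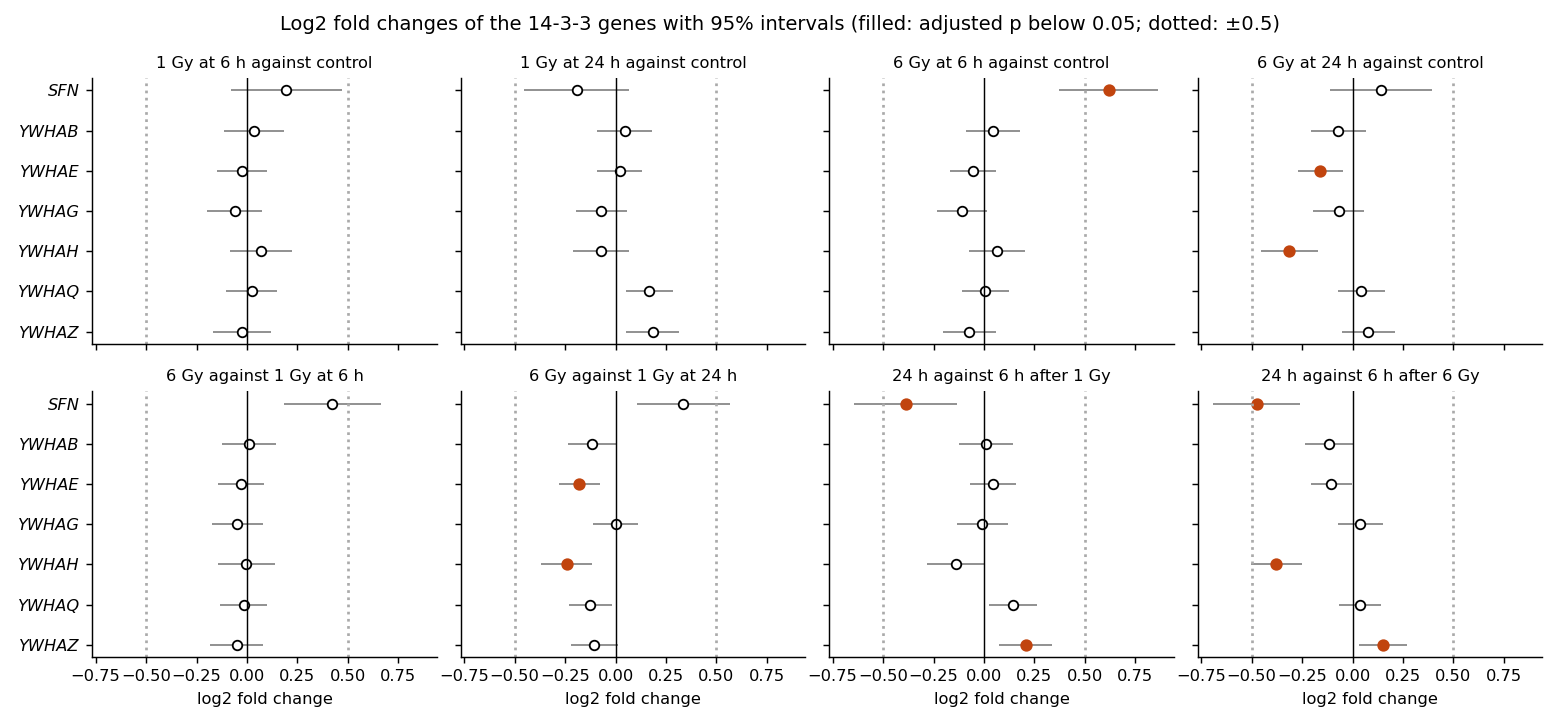
Log2 fold changes of the 7 genes in the 8 comparisons of groups, with bars for 95% intervals, filled points for an adjusted p under 0.05 and dotted lines at the fold threshold of 0.5. SFN after 6 Gy at 6 h, at 0.62, is the one point both filled and beyond the dotted line, and YWHAH is filled on the lower side in 3 panels.

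A day after 1 Gy, YWHAQ and YWHAZ gave the highest values of the series, at the edge of the test. YWHAZ, an isoform linked to survival signalling through RAF and BAD, had 1281, 1341 and 1220 CPM after 1 Gy at 24 h, against 1135 and 1121 CPM in the control. YWHAQ, known to bind BAD and the BCR kinase, had 1055, 1092 and 1074 CPM, against 966 and 947 CPM in the control. Neither pair of groups overlapped, which was not counted over all genes. The log2 fold changes were 0.18 ± 0.0635 for YWHAZ and 0.17 ± 0.0565 for YWHAQ (SE), with adjusted p-values of 0.0620 and 0.0565 in edgeR, and of 0.0361 and 0.0342 with all 15 libraries. Thus 0 of 7 members passed with 13 libraries in edgeR with TMM scaling. In that fit 12.1% of all genes had an adjusted p under 0.05, 3.18% were called higher and 1.23% lower. With 15 libraries 2 members passed, and the share of all genes in that fit was not counted. An unadjusted p under 0.05 was found for the same 2 members, YWHAQ and YWHAZ, and DESeq2 called 0 beyond the fold threshold. On the 13 libraries YWHAQ had an adjusted p of 0.0334 in DESeq2, 0.0441 with library totals and 0.0335 with upper quartile scaling, where YWHAZ had 0.0398, and with a replicate block the values were 0.00376 for YWHAQ and 0.00189 for YWHAZ.

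SFN had 12.9, 12.2 and 14.3 CPM after 1 Gy at 24 h, against 15.8 and 14.3 CPM in the control, and the groups touched (log2 fold change -0.19, adjusted p = 0.355 in edgeR). YWHAB (0.05), YWHAE (0.02), YWHAG (-0.07) and YWHAH (-0.07) also had intervals that held 0.

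A day after 6 Gy, YWHAH and YWHAE fell, both by less than the fold threshold. YWHAH, the eta isoform found at high levels in neurons, had 173, 170 and 164 CPM after 6 Gy at 24 h, against 207 and 213 CPM in the control. All 6 Gy libraries lay below every control, and the left-out control was higher still at 221 CPM. The log2 fold change was -0.31 ± 0.0677 (SE; interval -0.45 to -0.17) with an adjusted p of 0.00195 in edgeR's quasi-likelihood test. YWHAE had 996, 1028 and 1064 CPM after 6 Gy at 24 h, against 1156 and 1144 CPM in the control. Its groups did not overlap either, and the share of all genes without overlap was not counted. Its log2 fold change was -0.16 ± 0.0543 (SE; interval -0.27 to -0.05) with an adjusted p of 0.0365 in edgeR.

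Beside these 2 of 7 members, 23.6% of all genes had an adjusted p under 0.05 at 6 Gy and 24 h, so the members' share was near the background. No member was called by edgeR or DESeq2, while 5.58% of genes were called higher and 2.19% lower. The fall of YWHAE lost its adjusted p with library totals in place of TMM scaling (-0.12, adjusted p = 0.117 in edgeR), with upper quartile scaling (-0.12, 0.105), with no filter on low counts (-0.16, 0.0640), in a fit of only the groups compared (-0.15, 0.0687) or without control replicate I (-0.15, 0.179), control replicate II (-0.17, 0.157), 6 Gy at 6 h replicate III (-0.16, 0.0532), or 6 Gy at 24 h replicate I (-0.14, 0.0877) or II (-0.16, 0.0687). The fall of YWHAH kept its adjusted p under 0.05 in all settings tried.

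The remaining members did not pass at this point. SFN was back near the control, with 17.2, 15.2 and 17.4 CPM after 6 Gy at 24 h, against 15.8 and 14.3 CPM in the control (log2 fold change 0.14, interval -0.11 to 0.40, adjusted p = 0.429 in edgeR). YWHAZ had 1133, 1258 and 1182 CPM, against 1135 and 1121 CPM in the control (0.08, interval -0.05 to 0.21). YWHAB (-0.07), YWHAG (-0.07) and YWHAQ (0.04) also had intervals that held 0. All 4 comparisons with the control share the same control libraries.

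Between the doses at 24 h, YWHAH and YWHAE were again the members that fell. YWHAH had 173, 170 and 164 CPM after 6 Gy, against 189, 216 and 196 CPM after 1 Gy, a log2 difference of -0.24 ± 0.0611 (SE) with an adjusted p of 0.0304 in edgeR. YWHAE had 996, 1028 and 1064 CPM after 6 Gy, against 1169, 1150 and 1178 CPM after 1 Gy, a difference of -0.18 ± 0.0487 (SE) with an adjusted p of 0.0430. Both groups of libraries were separate for both genes, which was not counted over all genes. With all 15 libraries the adjusted p-values were 0.0621 for YWHAH and 0.0686 for YWHAE. They were 0.0587 and 0.0876 with library totals, and 0.0858 and 0.146 with only the groups compared, and YWHAE had 0.0597 with upper quartile scaling.

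Over all genes, 3.66% had an adjusted p under 0.05 in this comparison of doses and 0.44% were called, and 2 of 7 members passed the first rule and 0 the second. At an unadjusted p under 0.05 there were 4 members, which also included SFN at 0.33 (adjusted p = 0.0982 in edgeR) and YWHAQ at -0.12 (adjusted p = 0.178), and DESeq2 called 0. YWHAH lost its adjusted p without 1 Gy at 24 h replicate II (-0.19, 0.213) or III (-0.26, 0.0522), or 6 Gy at 24 h replicate I (-0.26, 0.0544), II (-0.24, 0.0527) or III (-0.21, 0.139), and YWHAE without either control replicate or any library of 1 Gy at 24 h, 6 Gy at 6 h or 6 Gy at 24 h (adjusted p 0.0533 to 0.141 in edgeR).

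At 24 h SFN had fallen relative to 6 h after both doses, and YWHAZ had risen. Without an unirradiated 6 h group, these changes cannot be told apart from time in culture. After 6 Gy SFN had 17.2, 15.2 and 17.4 CPM at 24 h, against 22.3, 25.5 and 21.4 CPM at 6 h, and it fell by 0.47 ± 0.103 on the log2 scale (SE) with an adjusted p of 0.00120 in edgeR. After 1 Gy it had 12.9, 12.2 and 14.3 CPM at 24 h, against 17.5 and 16.8 CPM at 6 h, and it fell by 0.39 ± 0.123 with an adjusted p of 0.0355. The libraries of the 2 times did not overlap at either dose, which was not counted over all genes. With all 15 libraries the fall after 1 Gy was larger, at -0.53, and was called (adjusted p = 0.00407 in edgeR). That fit adds the left-out 1 Gy library at 6 h, which stood apart from the others of its group at 22.4 CPM.

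YWHAH fell with time after 6 Gy, with 173, 170 and 164 CPM at 24 h, against 217, 227 and 216 CPM at 6 h (-0.38 ± 0.0610, SE; adjusted p = 6.23e-05 in edgeR). After 1 Gy it had 189, 216 and 196 CPM at 24 h, against 214 and 227 CPM at 6 h, and the groups overlapped (-0.14, adjusted p = 0.169 in edgeR, and 0.0467 with all 15 libraries). YWHAZ rose with time after 1 Gy, with 1281, 1341 and 1220 CPM at 24 h, against 1131 and 1090 CPM at 6 h (0.21 ± 0.0635, SE; adjusted p = 0.0305). After 6 Gy YWHAZ had 1133, 1258 and 1182 CPM at 24 h, against 1034, 1133 and 1051 CPM at 6 h, and the lowest library at 24 h and the highest at 6 h both stood at 1133 (0.15 ± 0.0566, SE; adjusted p = 0.0432 in edgeR, and 0.0599 with all 15 libraries).

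In all, 2 of 7 members passed the adjusted p between the times after 1 Gy, against 15.9% of all genes, and 3 of 7 after 6 Gy, against 34.4%. No member was beyond the fold threshold in either, where 5.48% and 10.6% of all genes were called, and DESeq2 called 0 too. Members with an unadjusted p under 0.05 numbered 4 after each dose. The change of YWHAZ after 6 Gy rests on single libraries: without 6 Gy at 24 h replicate II it was 0.11 (adjusted p = 0.201 in edgeR), and without replicate III of that group 0.16 (0.0885). It was also lost without 6 Gy at 6 h replicate I (0.13, 0.148) or III (0.14, 0.136), control replicate I (0.15, 0.0599) or II (0.14, 0.0746), or 1 Gy at 6 h replicate III (0.14, 0.0554), and in a fit of only the groups compared (0.0546), in edgeR's likelihood ratio test (0.0520) and in its exact test (0.0530). After 1 Gy, the fall of SFN was lost in DESeq2 (-0.39, 0.0797), in a fit of only the groups compared (-0.39, 0.0615) and without 1 Gy at 6 h replicate I (-0.36, 0.186) or III (-0.42, 0.0913) or 1 Gy at 24 h replicate I (-0.37, 0.0813) or II (-0.34, 0.109). The rise of YWHAZ after 1 Gy was lost without the same 4 libraries (adjusted p 0.0550 to 0.179 in edgeR) and without control replicate II (0.20, 0.0520), and in a fit of only the groups compared (0.0734).

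Whether the change with time differed between the doses was tested as an interaction, and no member passed, where 0.385% of all genes had an adjusted p under 0.05 and 0.291% were called. YWHAH came closest at -0.24 ± 0.0913 (SE; adjusted p = 0.321 in edgeR) and was the 1 member with an unadjusted p under 0.05, while DESeq2 called 0. For SFN the difference between the doses was -0.09 with an interval from -0.42 to 0.25. A dose dependence of these time courses was not shown, and the intervals do not show that the courses were alike. YWHAB, at 585 to 699 CPM over the fitted libraries, and YWHAG, at 523 to 586 CPM, had an adjusted p under 0.05 in none of the comparisons in the model of groups on the 13 libraries. With a replicate block added to that model, YWHAB passed between the times after 6 Gy (-0.11, adjusted p = 0.0237 in edgeR).

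The RNAs of several 14-3-3 clients that drive mitosis fell after 6 Gy. Of 17 cell-cycle clients, 6 were called lower and 1 higher after 6 Gy at 6 h, where 0.818% of all genes were called lower and 0.252% higher. Their median log2 fold change was -0.18, against 0.00 over all genes, and with all 15 libraries 5 were called lower. PLK1, a kinase of mitotic entry, had 129 ± 4.18 CPM after 6 Gy at 6 h (SD, n = 3), against 305 ± 2.51 CPM in the control (SD, n = 2), and fell by 1.24 ± 0.0645 on the log2 scale (SE; adjusted p = 1.54e-11 in edgeR). CCNB1, the cyclin B1 that stratifin holds in the cytoplasm, had 200.2 ± 18.5 CPM, against 526 ± 12.9 CPM in the control, and fell by 1.39 ± 0.0774. KIF23 (-0.66) and CDC25B (-0.53), a phosphatase that 14-3-3 keeps from CDK1, were also called lower.

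CDC25C, the best known mitotic client, had 16.0 ± 1.33 CPM after 6 Gy at 6 h, against 27.4 ± 3.39 CPM in the control (log2 fold change -0.78, adjusted p = 0.000332 in edgeR). WEE1, the kinase that opposes CDC25, fell as well (-0.51, adjusted p = 0.000370). CDT1, a replication licensing factor, was the 1 client called higher, with 176 ± 8.39 CPM against 118 ± 0.497 CPM in the control (0.58, adjusted p = 0.000138). In the wider list of G2 and mitosis genes, 19 of 25 were called lower at this time and 0 higher, with a median of -0.76, against the same shares of all genes. PLK1, CCNB1, KIF23, CDC25B, CDC25C and CDK1 stand in both lists, so the calls of clients and of mitosis genes are not separate results. The paper already names PLK1, CCNB1, CDC25C and KIF23 in a pathway that went down in these cells. Both lists were chosen with earlier results of these data known. Whether clients fell apart from their role in mitosis was not tested.

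After 6 Gy at 24 h 2 cell-cycle clients were called lower, PLK1 (-0.67) and KIF23 (-0.70), where 2.19% of all genes were called lower. Of 25 mitosis genes 11 were called lower, PLK1 and KIF23 among them. In the fit of 15 libraries these counts were 3 and 13. CCNB1 (-0.49) and CDC25C (-0.42) were under the fold threshold, with adjusted p-values of 0.000103 and 0.0116 in edgeR.

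Clients outside the cell cycle gave few calls, as did all genes (0.252% called higher and 0.818% lower after 6 Gy at 6 h, 5.58% higher and 2.19% lower after 6 Gy at 24 h), and nothing particular to these lists is read from the counts. Of 28 clients in survival and growth signalling, edgeR and DESeq2 called 0 after 6 Gy at 6 h, with 4 at an unadjusted p under 0.05, and 1 after 6 Gy at 24 h, ULK1, the kinase that starts autophagy (0.73, adjusted p = 0.000105 in edgeR). The fit of 15 libraries called 2 higher at that time. Of 23 clients in transcription and the cytoskeleton, both tools called 0 after 6 Gy at either time, with 3 at 6 h and 5 at 24 h at an unadjusted p under 0.05.

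Kinases that phosphorylate 14-3-3 binding sites gave 0 calls of 24 after 6 Gy at 6 h by either tool. At an unadjusted p under 0.05 there were 4. After 6 Gy at 24 h edgeR called 1, SGK3 (-0.84, adjusted p = 0.0445, and 0.0758 with all 15 libraries), and DESeq2 called 0. The shares of all genes are those just given. SGK3 was low, at 1.71 ± 0.492 CPM (SD, n = 3), against 3.07 ± 0.718 CPM in the control (SD, n = 2). Of 14 regulators of 14-3-3 dimers and of stratifin, 1 was called lower at 24 h after each dose, where 1.23% of all genes were called lower after 1 Gy and 2.19% after 6 Gy: SPHK1, which makes sphingosine 1-phosphate. Its level was 38.4 ± 4.26 CPM in the 1 Gy cells and 41.5 ± 4.72 CPM in the 6 Gy cells (SD, n = 3), against 62.4 ± 6.25 CPM in the control (SD, n = 2), with log2 fold changes of -0.71 and -0.59. TRIM25, a ligase that marks stratifin for breakdown, was at -0.06 after 6 Gy at 6 h (adjusted p = 0.744), and RFWD2 (COP1), another such ligase, at 0.00 (adjusted p = 0.997).

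**Figure D4:**
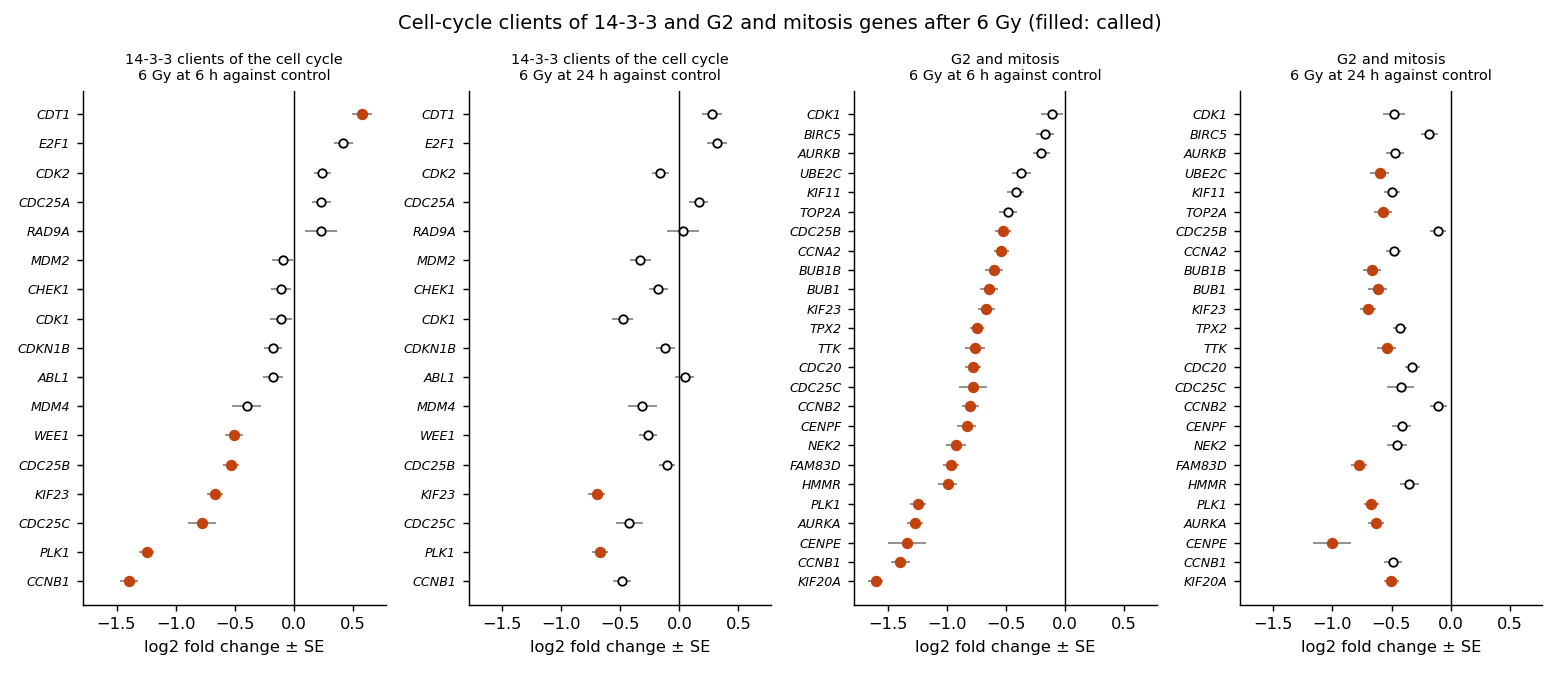
Log2 fold change, with bars for the SE, of 17 cell-cycle clients and 25 G2 and mitosis genes after 6 Gy at 6 h and at 24 h against the control, each list in its order at 6 h and filled points for called genes. PLK1 (-1.24) and CCNB1 (-1.39) are the lowest clients at 6 h, and 19 mitosis genes are called lower at 6 h and 11 at 24 h.

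Across the 13 libraries the members did not follow one pattern, as a description without a test. Log2 CPM of YWHAQ and YWHAZ had a Pearson r of 0.88, and YWHAB and YWHAH one of 0.73, while SFN and YWHAZ had -0.75. These points share libraries, groups and scaling. Among 9479 genes with a mean of 10 CPM or more, those most like SFN were CXCL16, a chemokine (r = 0.94), PCBP4, an RNA-binding protein (0.92), and CHST10, a sulfotransferase (0.91). PCBP4 had 37.9 ± 1.69 CPM after 6 Gy at 6 h (SD, n = 3), against 28.1 ± 0.525 CPM in the control (SD, n = 2). The genes most like YWHAH were NCOA5 (0.98), SET (0.97) and RAE1 (0.97), and SET had 720 ± 13.4 CPM after 6 Gy at 24 h, against 954 ± 12.4 CPM in the control.

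For YWHAZ the most similar genes were PPP1CB, a catalytic subunit of protein phosphatase 1 (0.96), GRIA4 (0.95) and KHDRBS1 (0.95), and for YWHAQ they were DRAM1 (0.95), GCLM (0.94) and CAV1 (0.93). PPP1CB had 883 ± 46.1 CPM after 1 Gy at 24 h, against 582 ± 1.87 CPM in the control. YWHAE was most like KIF15 (0.94), PPP3CB (0.92) and MEAF6 (0.91), YWHAG like PAK2 (0.95), MYSM1 (0.94) and DYRK2 (0.93), and YWHAB like MPHOSPH8 (0.93), SNHG7 (0.92) and BMI1 (0.91).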

How the data were processed

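Polyadenylated RNA of U251 cells was sequenced in 15 libraries of 5 groups. The authors aligned reads to hg19 with TopHat and made the deposited raw read counts per gene with HTSeq, per the labels and the submitters' processing notes. No tool version is given in the sources used here. A second deposited table holds the authors' own fold changes and p-values and was not used here.

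Counts of 13 libraries were filtered (filterByExpr, minimum count 10), scaled by TMM and fitted in 1 model of 5 groups with edgeR 4.0.16 (R 4.3.3, limma 3.58.1) and its quasi-likelihood test, with p adjusted by Benjamini-Hochberg over 12719 genes (12597 with all 15 libraries). Called genes had an adjusted p under 0.05 and a log2 fold change beyond 0.5. The biological coefficient of variation was 6.26%, with 8 residual degrees of freedom. Fold changes carry SE from the fit. The code was tested on simulated data. DESeq2 1.42.0, other scalings and filters, a replicate block and leaving out each library were tried. Between same-numbered replicates, the correlation of deviations was over 0.1 in 13 of 24 pairs and ran from -0.151 to 0.374. For replicate I it ran from 0.0772 to 0.374. Pairs with different numbers were not compared, so a shared effect of replicate is not excluded. Replicate numbers were not used as pairs in the main fit. With the replicate block more members passed the adjusted p, as given in the last section.

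The members and the 9 gene lists were chosen with earlier results of these data known. The rule for names was all 7 members, of each list up to 4 called genes with the lowest adjusted p in a comparison and genes named for binding or regulating 14-3-3, and the 3 genes most like each member by Pearson r of log2 CPM (prior count 2). Genes shown outside it (CDC25C, WEE1, CDT1) are named for their role. Promoters came from RefSeq (GRCh38.p14), and transcript lengths from GENCODE. One client gene and 1 gene list are not reported here.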

Additional observations from a re-analysis of the deposited data

Results flagged for a closer look

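The results set apart here are differences between doses or times that passed the test of the difference itself. Between the doses at 24 h, 6 Gy against 1 Gy, YWHAE (-0.18 on the log2 scale) and YWHAH (-0.24) were lower after 6 Gy in all 3 libraries. Between the times, 24 h against 6 h, SFN was lower at 24 h after 1 Gy (-0.39) and after 6 Gy (-0.47), YWHAH was lower after 6 Gy (-0.38), and YWHAZ was higher after 1 Gy (0.21) and after 6 Gy (0.15). All had an adjusted p under 0.05 in edgeR's quasi-likelihood test, and none was beyond the fold threshold of 0.5. In the differences between times, the course after irradiation and time in culture cannot be told apart.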

How the results depend on the processing

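Over the alternatives, 1568 tests of a member in a comparison were repeated. Of these, 1486 kept their side of the adjusted p threshold, 56 lost their adjusted p under 0.05 and 26 gained one. In direction, 0 results past the threshold turned round. Among the 1486, 42 values changed sign. They were past the threshold in neither fit and lay within 1 SE of 0 in the main fit. The number of members called was 1 for 6 Gy at 6 h against control and 0 elsewhere. With no fold threshold it was 2 for 6 Gy at 24 h against control, 2 for 6 Gy against 1 Gy at 24 h, 2 for 24 h against 6 h after 1 Gy and 3 for 24 h against 6 h after 6 Gy. Leaving out 1 library gave 0 to 1 for 6 Gy at 6 h against control and 0 to 1 for 24 h against 6 h after 6 Gy, where SFN lies just under the threshold. With all 15 libraries, 24 h against 6 h after 1 Gy gave 1 call, SFN. The replicate block gave 1 call, SFN, for 6 Gy at 6 h against control, and with all 15 libraries also 1 for 24 h against 6 h after 1 Gy. With no fold threshold, the block on 13 libraries gave 2 members for 1 Gy at 24 h against control. These were YWHAQ (adjusted p = 0.00376 in edgeR) and YWHAZ (0.00189). For 6 Gy against 1 Gy at 24 h the block gave 4 members. It added SFN (adjusted p = 0.0453 in edgeR) and YWHAQ (0.0280). For 24 h against 6 h it gave 4 members after 1 Gy, adding YWHAH (0.0301) and YWHAQ (0.0281). After 6 Gy it gave 5, adding YWHAB (0.0237) and YWHAE (0.0217). The share of all genes that passed with the block was not counted, so nothing particular to the members is read from these counts. SFN has few reads (106 to 233 in the fitted libraries), which limits its precision. Scaling by other methods moved the median of all genes by less than 0.05 on the log2 scale.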
